A study of Mus musculus with 10 samples.

Results

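Inguinal white adipose tissue (iWAT), the subcutaneous fat pad of the groin, was compared between males on a control diet (CD) and males on a low-protein diet (LPD), with the reads on introns and the reads on exons of the same genes examined side by side. The genes followed were the protein-coding genes of the nuclear genome with more than 1 exon that had at least 20 reads on exons and at least 20 reads on introns in each of the 4 libraries. Of 51826 listed genes, 20447 were protein-coding, nuclear and spliced, and 10019 of these met both minimums. Another 1866 had too few intron reads only, 709 had too few exon reads only, and 7853 had too few of both. The libraries came from 2 CD-fed and 2 LPD-fed males of the F0 generation, C57BL/6 wild type and 10 to 12 weeks old, given their diet from weaning, with both groups descending from mice kept on CD. Each library is 1 mouse, so p-values rest on few animals. The tests used below also draw the spread of each gene toward that of all genes tested. Their p-values therefore do not measure the spread between these animals alone.

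RNA polymerase copies exons and introns alike, and the spliceosome removes the introns, most of which are then degraded rapidly. In RNA depleted of ribosomal RNA, but not selected for poly(A), reads on introns therefore come largely from unspliced or partly spliced transcripts and from excised introns, whereas reads on exons come mainly from mature mRNA. A change in transcription is generally seen in introns first, and in exons with a delay that depends on how long the mRNA lives, while a change in mRNA stability touches exons and leaves introns as they were. Counts alone do not separate these processes, and intron reads can also come from retained introns or from unannotated transcripts that lie inside a gene.

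Between 7354694 and 8557560 exon reads and between 4333598 and 5079401 intron reads per mouse fell on the 10019 genes. A floor of 3 reads corresponded to 0.299 to 0.349 CPM (reads per 1000000 of a library's scaled total) in exons and 0.516 to 0.613 CPM in introns, which covers counting error only. The median gene had 326.75 exon reads and 186.75 intron reads as a mean over the 4 mice, and 3413 genes had more intron than exon reads. Introns held 38.8% and 37.2% of the reads of these genes in the CD mice and 38.3% and 37.1% in the LPD mice, a difference of −0.305 percentage points between 37.7% ± 0.873 (SD, n = 2) on LPD and 38.0% ± 1.06 (SD, n = 2) on CD (exact two-sided permutation p = 0.667, where 2 against 2 cannot give less than 0.33). The mice of the 2 diets overlapped in this share. The 2 mice of a diet differed in the median gene by 0.117 to 0.125 on the log2 scale in exons and by 0.126 to 0.135 in introns.

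Marker genes were checked in the same libraries. The 9 adipocyte markers summed to 21174 to 22702 exon CPM on CD and 18918 to 22580.2 on LPD, and none was at 0. The 44 skeletal muscle markers, summed to 5304 to 8244 exon CPM on CD and 2645 to 3496 on LPD, with 0 of 44 higher on LPD on average and none at 0. Their intron sums were 744 to 921 CPM on CD and 633 to 647 on LPD. The 5 markers of brown or beige adipocytes summed to 119.8 to 247 exon CPM on CD and 618 to 739.7 on LPD, with all 5 higher on LPD. Macrophage and endothelial sums overlapped between the diets in exons, where lymphocyte sums were 1192 to 1355 on CD and 1372 to 1542 on LPD. Progenitor exon sums were 898 to 947 on CD and 793 to 823 on LPD. In introns, lymphocyte, progenitor and endothelial sums overlapped, and macrophage sums were 1596 to 1641 on CD and 1678 to 1716 on LPD. Epithelial sums were low, at 13.8 to 17.3 on CD and 12.2 to 12.5 on LPD in exons. Their intron sums were 20.1 to 21.8 and 10.8 to 18.7, with some markers at 0. In bulk tissue, fewer cells of a type and less RNA per cell cannot be told apart.

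To determine which genes responded to the diet in both kinds of RNA and which in only 1, each column was normalized on its own and tested across every listed gene that passed a filter on low counts (14581 genes in exons, 14283 in introns) with edgeR's quasi-likelihood test, with Benjamini-Hochberg adjustment and a threshold of 0.05. All adjusted p-values below come from this test, and all fold changes are log2 fold changes of LPD over CD. Among the 10019 genes, 248 changed in exons, 123 up and 125 down, and 405 changed in introns, 153 up and 252 down. The background over all genes tested was 2.5% for exons (1.18% up, 1.32% down) and 3.51% for introns (1.37% up, 2.14% down), against 2.48% and 4.04% of the 10019 genes. In all 248 and all 405, both mice of 1 diet lay above both of the other, as did 46.6% of all genes tested in exons and 45.8% in introns. The median change of the called genes was 0.80 up and −0.72 down in exons, and 0.70 up and −0.73 down in introns.

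Sorted by both tests, 74 genes changed in the same direction in exons and introns (35 up, 39 down), 3 changed in opposite directions, 171 changed in exons only (85 up, 86 down) and 328 changed in introns only (118 up, 210 down). Over all genes tested in both columns, 0.751% were called in both, 1.65% in exons only and 2.89% in introns only. Both columns come from the same 4 mice, so the classes do not rest on independent animals. Being called in 1 column only does not show that the effects differ, since 75 of the 171 exon-only genes had an unadjusted p below 0.05 in the same direction in introns, and 119 of the 328 intron-only genes had this in exons.

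The counts changed when a mouse was left out. Each such fit holds 1 mouse on that diet and takes its spread from the 2 mice of the other, so the lone mouse is assumed to vary like them, and the influence of a mouse and the spread of the remaining pair cannot be told apart. Without LPD mouse 2, 66 genes were called in exons, 271 in introns and 22 in both, and without CD mouse 2 the numbers were 91, 458 and 41. Without CD mouse 1, 204 were called in exons, 722 in introns and 615 in introns only, whereas without LPD mouse 1 the exon count was 348 and 200 genes were called in introns only.

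**Figure D1:**
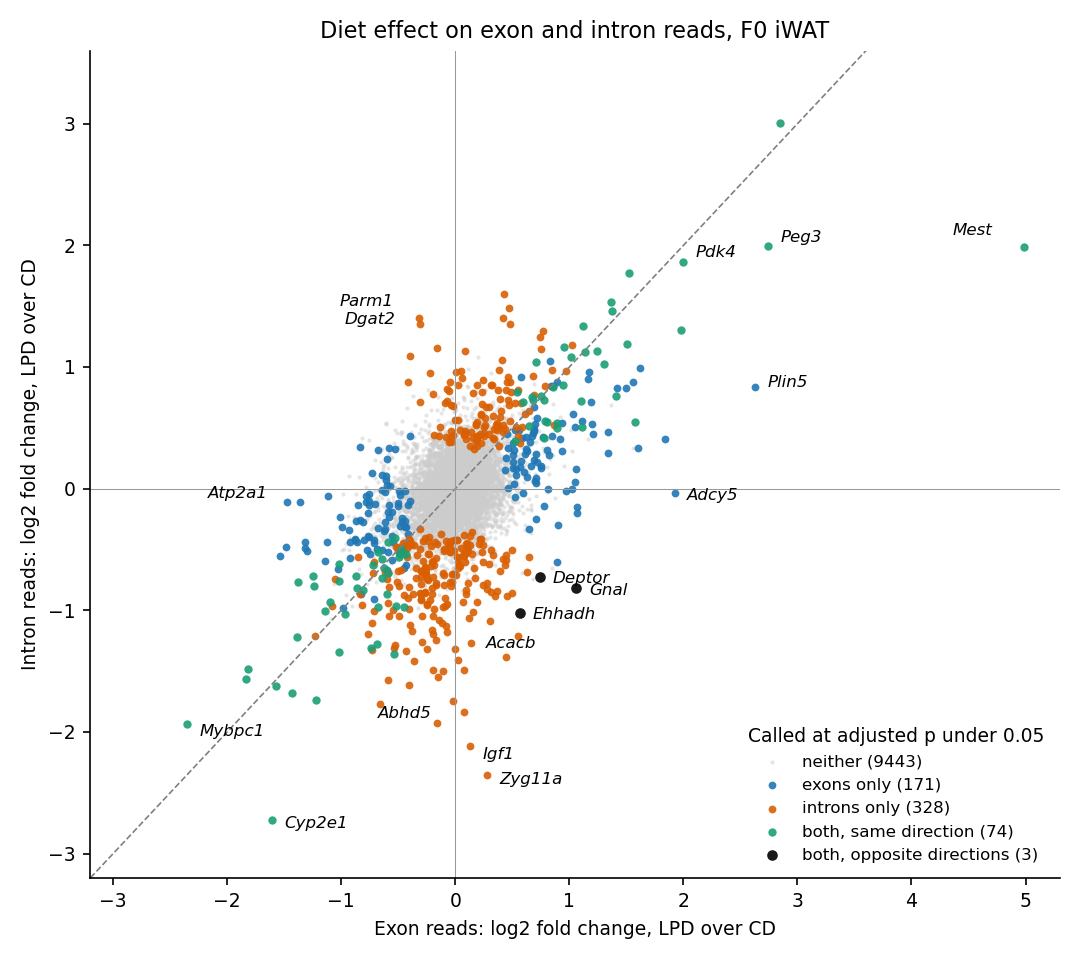
Log2 fold change of LPD over CD in exon reads (x axis) and in intron reads (y axis) for each of the 10019 genes, as 1 point per gene, with colours for the class of the call and a dashed line where both effects are equal. The 74 genes called in both lie in the upper right and lower left parts, some of them off the line, such as Mest at 4.99 and 1.98. Of the 328 genes called in introns only, 210 lie below 0 on the y axis. Their median exon change was −0.17, and that of the 118 above 0 was 0.25.

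The genes that rose in both columns included regulators of fuel choice and imprinted genes. Pdk4 (chr6:5483351-5496309, minus strand, mm10), a kinase that shuts pyruvate out of the mitochondrial citrate cycle and so spares glucose, measured 120.2 and 79.5 CPM on CD and 378 and 421 CPM on LPD in exons, and 24.7 and 30.3 CPM on CD and 90.9 and 110.4 CPM on LPD in introns. Both LPD mice lay above both CD mice in each column. Its change was 2.00 ± 0.18 (SE; adjusted p = 0.00223) in exons and 1.87 ± 0.14 (SE; adjusted p = 0.000121) in introns, and the difference between them, −0.16 ± 0.15 (SE; adjusted p = 0.76), did not pass the test. Ppara (chr15:85734983-85802819, plus strand), the nuclear receptor that switches on fatty acid oxidation genes, measured 14.1 and 21.2 CPM on CD and 43.4 and 33.5 CPM on LPD in exons and 43.7 and 37.3 CPM on CD and 115 and 88.9 CPM on LPD in introns. The LPD mice were again the higher ones in both, with changes of 1.12 ± 0.19 (SE; adjusted p = 0.0249) and 1.33 ± 0.14 (SE; adjusted p = 0.00104), although the exon call was lost without CD mouse 1 (0.86) and without LPD mouse 1 (0.92). Angptl4, a secreted inhibitor of lipoprotein lipase, rose by 1.02 ± 0.15 in exons and 1.09 ± 0.15 in introns, and Gk, which phosphorylates glycerol, by 1.37 ± 0.18 and 1.46 ± 0.14. The exon call of Angptl4 was lost without CD mouse 1 (1.01).

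The imprinted genes Mest and Peg3 were among the largest rises. Mest (chr6:30723547-30748465, plus strand), whose level tracks fat mass expansion, measured 22.0 and 11.4 CPM on CD and 342 and 707 CPM on LPD in exons and 10.3 and 10.7 CPM on CD and 27.2 and 56.8 CPM on LPD in introns. Each LPD mouse exceeded both CD mice by more than 10-fold in exons and by less than that in introns. The changes were 4.99 ± 0.39 (SE; adjusted p = 0.0019) and 1.98 ± 0.32 (SE; adjusted p = 0.01), and the intron minus exon difference was −3.0 ± 0.22 (SE; adjusted p = 4.08e-13). Its span overlaps 5 other listed genes, 77.4% of its exon reads matched it alone, and the difference was not called in a fit without a term for the mouse. Peg3, which encodes a zinc finger protein, rose by 2.74 ± 0.27 in exons and 2.00 ± 0.37 in introns. Hmgcs1, the first committed enzyme of the mevalonate route to cholesterol, rose by 1.52 ± 0.26 in exons, a call lost without LPD mouse 2 (1.15) and under DESeq2, and by 1.77 ± 0.15 in introns. Pmepa1, an inhibitor of TGF-β signalling, rose by 1.98 ± 0.27 and 1.31 ± 0.25, with no intron call under DESeq2. Zfyve28, a regulator of EGF receptor traffic, rose by 1.5 ± 0.31 and 1.19 ± 0.20, with the exon call lost without CD mouse 1 (1.48), CD mouse 2 (1.53) or LPD mouse 2 (1.07). Lamb3, a laminin chain, was called at 1.58 ± 0.31 and 0.55 ± 0.10, but only 38.9% of its intron reads matched it alone, and both calls were lost without LPD mouse 2 (1.11 and 0.46).

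The genes that fell in both columns included muscle genes, detoxification enzymes and targets of hormones. Cyp2e1 (chr7:140763739-140774987, plus strand), a cytochrome P450 that oxidizes ethanol and ketone bodies, measured 1038 and 1746 CPM on CD and 523 and 389 CPM on LPD in exons and 517 and 817 CPM on CD and 112 and 88.9 CPM on LPD in introns. Both LPD mice were lower in each column, and the intron values were further apart. The changes were −1.61 ± 0.24 (SE; adjusted p = 0.0169) in exons and −2.73 ± 0.20 (SE; adjusted p = 0.000121) in introns, a difference of −1.12 ± 0.11 (SE; adjusted p = 4.45e-10). The exon call was lost without LPD mouse 2 (−1.41). Gsta3, a glutathione transferase, fell, at −1.57 ± 0.19 in exons and −1.62 ± 0.20 in introns, though only 32.2% of its intron reads matched it alone. Klf15 (chr6:90462576-90475238, plus strand), a transcription factor that promotes amino acid breakdown and is induced by glucocorticoids, measured 71.8 and 102 CPM on CD and 53.7 and 45.3 CPM on LPD in exons and 66.0 and 79.0 CPM on CD and 42.0 and 39.3 CPM on LPD in introns. Its mice did not overlap in either column, with changes of −0.81 ± 0.16 (SE; adjusted p = 0.04) and −0.83 ± 0.12 (SE; adjusted p = 0.00519), although the exon call was lost without CD mouse 2 (−0.53) and without LPD mouse 2 (−0.70). Muscle genes had the 3 largest exon falls of the class. Mybpc1, a myosin-binding protein, fell, at −2.35 ± 0.27 in exons and −1.93 ± 0.34 in introns, Myot, a Z-disc protein, at −1.84 ± 0.29 and −1.57 ± 0.31, Nrap, which anchors actin at the ends of muscle fibres, at −1.82 ± 0.34 and −1.48 ± 0.29, and Trdn, of the calcium release complex, at −1.39 ± 0.21 and −1.22 ± 0.26. Without LPD mouse 2 the exon calls of Myot (−1.76), Nrap (−1.56) and Trdn (−1.24) and the intron call of Trdn (−0.92) were lost, and without CD mouse 2 or LPD mouse 1 the intron calls of Myot (−1.11 and −1.38) and Nrap (−1.06 and −1.40).

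Beyond muscle, Gpt2, the mitochondrial alanine transaminase, fell, at −1.14 ± 0.11 and −1.01 ± 0.16, and Errfi1, a feedback inhibitor of the EGF receptor, likewise, at −1.10 ± 0.12 and −0.94 ± 0.11.

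To show the DNA in front of genes that moved in both columns and of genes that moved in introns only, the RefSeq promoter windows of 4 genes, chosen after their values were seen, are given (GRCm38.p6, the assembly also named mm10; 250 bases before to 50 bases after the start; 5′ to 3′ on the gene's strand). Capitals mark every match to CACGTG (the E-box bound by clock and sterol factors), CCAAT (or ATTGG on the other strand) and TATAAA. Pdk4 (called up in both, chr6:5496229-5496528, minus strand) held 1 CCAAT match, Klf15 (down in both, chr6:90462326-90462625, plus strand) held 3 CACGTG and 1 CCAAT, Insig1 (up in introns only, chr5:28071162-28071461, plus strand) held 1 CACGTG and 1 CCAAT, and Acacb (down in introns only, chr5:114165268-114165567, plus strand) held 1 TATAAA and 1 CCAAT. The RefSeq starts of Pdk4, Insig1 and Acacb lie inside the spans that the deposited tables list. Those of Pdk4 and Insig1 lie near the edge, and their windows reach past it. The Acacb window lies wholly inside the span of the gene, so part of the counted gene lies before it.
Pdk4: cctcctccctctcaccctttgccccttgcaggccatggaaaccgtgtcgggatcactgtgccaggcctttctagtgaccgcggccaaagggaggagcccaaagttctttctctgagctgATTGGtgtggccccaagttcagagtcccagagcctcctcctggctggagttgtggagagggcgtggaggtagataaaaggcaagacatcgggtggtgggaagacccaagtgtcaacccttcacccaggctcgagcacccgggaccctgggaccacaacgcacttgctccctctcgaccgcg
Klf15: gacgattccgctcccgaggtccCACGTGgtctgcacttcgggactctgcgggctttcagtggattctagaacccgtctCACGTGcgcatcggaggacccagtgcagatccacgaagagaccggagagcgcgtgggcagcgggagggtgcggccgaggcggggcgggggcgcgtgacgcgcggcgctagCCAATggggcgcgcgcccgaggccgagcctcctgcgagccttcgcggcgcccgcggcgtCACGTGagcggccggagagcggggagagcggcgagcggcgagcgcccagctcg
Insig1: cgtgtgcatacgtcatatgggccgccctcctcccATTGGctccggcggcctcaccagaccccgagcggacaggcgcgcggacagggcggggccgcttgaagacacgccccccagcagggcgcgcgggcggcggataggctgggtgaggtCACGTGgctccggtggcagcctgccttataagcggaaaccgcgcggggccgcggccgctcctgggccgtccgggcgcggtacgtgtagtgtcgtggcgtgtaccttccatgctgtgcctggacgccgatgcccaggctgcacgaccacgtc
Acacb: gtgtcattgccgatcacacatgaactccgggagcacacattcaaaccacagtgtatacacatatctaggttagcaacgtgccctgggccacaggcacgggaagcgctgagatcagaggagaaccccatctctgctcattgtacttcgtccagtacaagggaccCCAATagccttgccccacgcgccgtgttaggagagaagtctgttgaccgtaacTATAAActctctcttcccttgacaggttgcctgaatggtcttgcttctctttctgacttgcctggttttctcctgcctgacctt

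A gene was counted as holding a motif if any of its windows did. Among the genes that rose in both, 28 had such a window, and 14 of these genes held CCAAT, 4 TATAAA (14.3%), 2 TGACGTCA (7.14%), and 1 CACGTG (3.57%). Of the 28 genes with a window that fell in both, 13 held CCAAT (46.4%), 3 TATAAA (10.7%), 2 TGACGTCA (7.14%) and 3 CACGTG (10.7%). The shares over the 7831 of the 10019 genes that had a window were 42.5%, 8.42%, 3.59% and 11.8%. Over all 32851 windows of that RefSeq set, counted per window and so not on the same measure, they were 37.4%, 13.6%, 1.79% and 7.15%. Both strands were searched. A repeat of AGGTCA with 1 base between, the element of the PPAR receptors in its strict form, was in none of the windows of the genes called in both. It was in 0.0383% of the 7831 genes and in 0.0396% of all windows. The 89 genes with a window that were up in introns only held CCAAT in 48.3% and CACGTG in 11.2%, and the 147 down in introns only held them in 39.5% and 12.2%. A match of letters describes the sequence and shows no binding.

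Genes that changed in exons only were led by lipid droplet, cyclic AMP and fatty acid oxidation genes on the way up. Plin5 (chr17:56111601-56117596, minus strand), the perilipin that ties lipid droplets to mitochondria, measured 8.70 and 4.79 CPM on CD and 32.7 and 50.1 CPM on LPD in exons and 4.42 and 3.96 CPM on CD and 7.06 and 7.97 CPM on LPD in introns. Exon levels of the LPD mice stood far above those of the CD mice, and intron levels, which rest on few reads, did so by less. It rose by 2.63 ± 0.28 (SE; adjusted p = 0.00501) in exons, whereas the intron change of 0.84 ± 0.27 (SE; adjusted p = 0.166) was not called, and the difference was −1.77 ± 0.34 (SE; adjusted p = 0.000525). Adcy5 (chr16:35154877-35305737, plus strand), an adenylyl cyclase that makes cyclic AMP, measured 102 and 94.6 CPM on CD and 276 and 469.6 CPM on LPD in exons and 377 and 359.9 CPM on CD and 264 and 454 CPM on LPD in introns. The exon groups did not overlap, while both CD mice lay between the LPD mice in introns. Its exon rise of 1.92 ± 0.22 (SE; adjusted p = 0.00627) stood against an intron change of −0.04 ± 0.19 (SE; adjusted p = 0.951), and the difference of −1.96 ± 0.10 (SE; adjusted p = 6.27e-18) was called in all 16 alternative fits that could give it, between −2.04 and −1.94. Introns held 69.1% and 68.8% of its reads on CD and 36.3% and 35.5% on LPD. Reads across exon junctions, a subset of the exon reads, gave 1.98.

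Slc25a20 (chr9:108662088-108684641, plus strand), the carrier that brings acylcarnitines into mitochondria, measured 52.6 and 40.7 CPM on CD and 97.7 and 96.7 CPM on LPD in exons and 22.1 and 23.4 CPM on CD and 26.6 and 24.1 CPM on LPD in introns. The LPD mice were about level with each other in exons, above both CD mice, and all 4 mice were close in introns. The changes were 1.06 ± 0.12 (SE; adjusted p = 0.00627) and 0.16 ± 0.14 (SE; adjusted p = 0.674), with a difference of −0.91 ± 0.17 (SE; adjusted p = 0.000235). Acaa2, the last enzyme of the mitochondrial oxidation spiral, measured 172 and 137 CPM on CD and 305 and 235 CPM on LPD in exons and 38.7 and 35.3 CPM on CD and 38.3 and 35.2 CPM on LPD in introns. Intron levels of the 2 diets overlapped and exon levels did not. It changed by 0.81 ± 0.15 (SE; adjusted p = 0.0313) in exons and −0.01 ± 0.12 (SE; adjusted p = 0.988) in introns, a difference of −0.82 ± 0.13 (SE; adjusted p = 3.53e-05), with the exon call lost without CD mouse 2 (0.66) and without LPD mouse 1 (0.61). Cidea, a lipid droplet protein of brown and beige fat, rose by 1.62 ± 0.27 in exons and measured 0.99 ± 0.32 (SE; adjusted p = 0.168) in introns, with no exon call under DESeq2. Arhgef37, a guanine nucleotide exchange factor, rose by 1.84 ± 0.24 in exons against 0.41 ± 0.17 in introns, and Trp53inp2, an autophagy protein, by 1.56 ± 0.25, a call lost without CD mouse 2 (1.29), against 0.88 ± 0.29.

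Genes that fell in exons only were led by muscle genes. Atp2a1, the calcium pump of fast muscle, measured 268 and 465 CPM on CD and 156 and 108 CPM on LPD in exons and 14.7 and 16.7 CPM on CD and 15.7 and 13.3 CPM on LPD in introns. CD mouse 2 was the highest in exons, and the intron values of the 2 diets overlapped. The changes were −1.47 ± 0.25 (SE; adjusted p = 0.0241) in exons and −0.11 ± 0.18 (SE; adjusted p = 0.836) in introns, a difference of 1.35 ± 0.19 (SE; adjusted p = 3.29e-06), and DESeq2 did not make the exon call. Tpm2, a tropomyosin of the thin filament, fell, at −1.36 ± 0.22 in exons against −0.11 ± 0.29 in introns, and Neb, the giant ruler of that filament, at −1.32 ± 0.21 against −0.44 ± 0.15. The exon calls of Atp2a1 (−1.23), Tpm2 (−1.15) and Neb (−1.18) were lost without LPD mouse 2. Mypn, a titin-binding protein of the sarcomere, stood at −1.54 ± 0.25 against −0.56 ± 0.34, with the exon call lost without CD mouse 2 (−1.37) or LPD mouse 2 (−1.33). Outside muscle, Adcyap1r1, the receptor of the peptide PACAP, fell, at −1.49 ± 0.23 against −0.48 ± 0.18, a call lost without LPD mouse 2 (−1.47), and Retn, the adipokine resistin, fell, at −0.78 ± 0.13 in exons against −0.06 ± 0.16 in introns, a difference of 0.72 ± 0.15 (SE; adjusted p = 0.00115), with the exon call lost without CD mouse 2 (−0.62).

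Genes that fell in introns only formed the largest class, 210 genes, and several are central to adipocyte signalling and lipid handling. Igf1 (chr10:87858265-87937042, plus strand), the growth factor, measured 643 and 551 CPM on CD and 122 and 154 CPM on LPD in introns and 336 and 349 CPM on CD and 361 and 389 CPM on LPD in exons. Intron levels of the LPD mice were the lower ones with no overlap, whereas exon levels of the LPD mice were slightly the higher ones. The intron change was −2.12 ± 0.12 (SE; adjusted p = 4.4e-05), the exon change 0.13 ± 0.10 (SE; adjusted p = 0.612), the junction change 0.07 and the difference −2.25 ± 0.11 (SE; adjusted p = 2.18e-18). Introns held 53.7% and 47.8% of its reads on CD and 16.7% and 18.3% on LPD. Abhd5 (chr9:122351608-122381524, plus strand), the co-activator of the triglyceride lipase ATGL, measured 239 and 249 CPM on CD and 70.8 and 74.6 CPM on LPD in introns and 151 and 179.8 CPM on CD and 149.8 and 177 CPM on LPD in exons. Its exon values overlapped between the diets, and its intron values were far apart, with an intron change of −1.75 ± 0.08 (SE; adjusted p = 2.43e-05), an exon change of −0.02 ± 0.12 (SE; adjusted p = 0.971) and a difference of −1.72 ± 0.11 (SE; adjusted p = 4.43e-15).

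Acacb (chr5:114146535-114250761, plus strand), the mitochondrial acetyl-CoA carboxylase whose product malonyl-CoA blocks fatty acid entry into mitochondria, measured 781 and 730.4 CPM on CD and 328 and 297 CPM on LPD in introns and 949 and 906 CPM on CD and 1154 and 892 CPM on LPD in exons. LPD mouse 1 was the highest of the 4 in exons and LPD mouse 2 the lowest, while both LPD mice were the lower ones in introns. The changes were −1.27 ± 0.08 (SE; adjusted p = 7.41e-05) in introns and 0.14 ± 0.15 (SE; adjusted p = 0.729) in exons, and the difference was −1.40 ± 0.10 (SE; adjusted p = 4.78e-13). Steap4 (chr5:7960457-7982213, plus strand), a metalloreductase of adipocytes, measured 180.0 and 142 CPM on CD and 43.1 and 47.0 CPM on LPD in introns and 609 and 600.4 CPM on CD and 604 and 669.7 CPM on LPD in exons. Here too the introns of the LPD mice were lower without overlap and the exons were not separated, with changes of −1.84 ± 0.13 (SE; adjusted p = 0.000101) and 0.07 ± 0.11 (SE; adjusted p = 0.822) and a difference of −1.90 ± 0.12 (SE; adjusted p = 5.52e-15). The difference was called in all 16 alternative fits for each of Igf1, Abhd5, Acacb and Steap4, with the smallest sizes at −2.11, −1.64, −1.29 and −1.74.

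Further genes of the class, of which Pik3r1, Slc1a3, B4galt1 and Lgr4 were chosen after their values were seen, gave like values. Pik3r1, the regulatory subunit of PI3-kinase downstream of insulin, changed by −1.32 ± 0.08 in introns and measured 0.00 ± 0.13 in exons. Zyg11a, a subunit of a ubiquitin ligase, had the largest intron fall of the class, −2.36 ± 0.13, against 0.28 ± 0.21 in exons. Sybu, a kinesin linker, measured −1.93 ± 0.14 against −0.16 ± 0.17, Slc1a3, a glutamate transporter, −1.49 ± 0.16 against 0.07 ± 0.18, and B4galt1, a galactosyltransferase, −1.55 ± 0.08 against −0.15 ± 0.10. Lgr4, a receptor for R-spondins, measured −1.38 ± 0.10 in introns and 0.45 ± 0.13 in exons, and Pard6g, a cell polarity protein, −1.77 ± 0.13 and −0.66 ± 0.18. Asns, asparagine synthetase, a gene known for its induction by amino acid shortage, measured 18.1 and 24.3 CPM on CD and 6.70 and 9.41 CPM on LPD in introns and 42.0 and 53.0 CPM on CD and 42.3 and 54.8 CPM on LPD in exons. The LPD mice were lower in introns without overlap, and the exon values of the diets were interleaved. Its intron change was −1.41 ± 0.23 (SE; adjusted p = 0.0107) and its exon change 0.03 ± 0.15 (SE; adjusted p = 0.966).

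Genes that rose in introns only included a triglyceride synthase and regulators of sterol and mitochondrial programs. Dgat2 (chr7:99153658-99182719, minus strand), which catalyses the last step of triglyceride synthesis, measured 73.3 and 114 CPM on CD and 250.4 and 229 CPM on LPD in introns and 1543 and 1432 CPM on CD and 1213 and 1180.2 CPM on LPD in exons. Its LPD mice were higher in introns and lower in exons, in both cases without overlap. The intron change was 1.35 ± 0.16 (SE; adjusted p = 0.00228), the exon change of −0.31 ± 0.13 (SE; adjusted p = 0.268) did not pass the test, and the difference was 1.68 ± 0.14 (SE; adjusted p = 5.66e-12). Insig1 (chr5:28071363-28078662, plus strand), which holds SREBP in the endoplasmic reticulum, measured 17.5 and 23.9 CPM on CD and 53.1 and 38.8 CPM on LPD in introns and 539.5 and 318 CPM on CD and 449 and 316 CPM on LPD in exons. Exon levels overlapped between the diets, and the changes were 1.15 ± 0.19 (SE; adjusted p = 0.0113) and −0.16 ± 0.24 (SE; adjusted p = 0.814). The difference of 1.27 ± 0.19 (SE; adjusted p = 4.83e-06) was not called under DESeq2 or without a term for the mouse. Ppargc1a (chr5:51454250-51567726, minus strand), a co-activator of mitochondrial biogenesis, measured 27.3 and 25.8 CPM on CD and 57.2 and 55.8 CPM on LPD in introns and 19.6 and 23.0 CPM on CD and 13.3 and 19.2 CPM on LPD in exons. It rose by 1.09 ± 0.11 (SE; adjusted p = 0.000933) in introns against −0.40 ± 0.18 (SE; adjusted p = 0.343) in exons, a difference of 1.5 ± 0.19 (SE; adjusted p = 3.01e-07), and its span overlaps 4 other listed genes.

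Parm1, a transmembrane mucin, rose by 1.40 ± 0.20 (SE; adjusted p = 0.00599) in introns against −0.32 ± 0.15 (SE; adjusted p = 0.372) in exons, and the difference of 1.71 ± 0.13 (SE; adjusted p = 4.08e-13) was called in all 16 alternative fits. Hsph1, a heat shock protein, rose by 1.60 ± 0.19 in introns against 0.42 ± 0.12 in exons, and Klb, the co-receptor for FGF21, by 1.35 ± 0.20 against 0.48 ± 0.14. Adipoq, the gene of adiponectin, measured 30.2 and 52.6 CPM on CD and 73.0 and 88.7 CPM on LPD in introns and 1999 and 2196 CPM on CD and 1849 and 2358 CPM on LPD in exons. The diets did not overlap in introns and overlapped in exons, with changes of 0.96 ± 0.21 (SE; adjusted p = 0.0375) and 0.00 ± 0.16 (SE; adjusted p = 0.996). Its intron call was lost without LPD mouse 2 (0.82) and under DESeq2. Itsn1 (1.48 in introns) and Mmd (1.40) were also called, but 0% and 25.3% of their intron reads matched them alone, so their values are uncertain.

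Only 3 genes were called in opposite directions, and in each the exons rose and the introns fell. Among the 4508 genes whose span overlaps no other listed gene, 0 were called so. The spans of all 3 thus overlap other listed genes, as did those of 55.0% of the 10019 genes. Reads of a neighbour in the counts of these 3 cannot be told apart. DESeq2 called 4 genes in opposite directions, and a fit with both generations of mice 1. Deptor (chr15:55112317-55259271, plus strand), an inhibitor of mTOR, the kinase that senses amino acids, measured 271 and 252 CPM on CD and 418 and 457 CPM on LPD in exons and 275 and 252 CPM on CD and 158 and 161 CPM on LPD in introns. Neither column had an overlap between the diets. It changed by 0.74 ± 0.10 (SE; adjusted p = 0.0136) in exons and −0.73 ± 0.08 (SE; adjusted p = 0.00149) in introns, a difference of −1.46 ± 0.10 (SE; adjusted p = 4.7e-14), although the exon call was lost without CD mouse 2 (0.69). Ehhadh, the bifunctional enzyme of peroxisomal oxidation, measured 55.0 and 67.4 CPM on CD and 83.8 and 98.4 CPM on LPD in exons and 86.4 and 67.3 CPM on CD and 37.1 and 38.6 CPM on LPD in introns. Its changes were 0.57 ± 0.12 (SE; adjusted p = 0.0487) and −1.02 ± 0.13 (SE; adjusted p = 0.00322), with the exon call lost without CD mouse 1 (0.43) and without LPD mouse 2 (0.45). Gnal, a G protein subunit that couples receptors to adenylyl cyclase, changed by 1.06 ± 0.18 and −0.82 ± 0.19 at 7.69 to 19.1 exon CPM, and its exon call was lost without CD mouse 1 (0.99) and without LPD mouse 2 (0.88), and its intron call without LPD mouse 1 (−0.58).

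**Figure D2:**
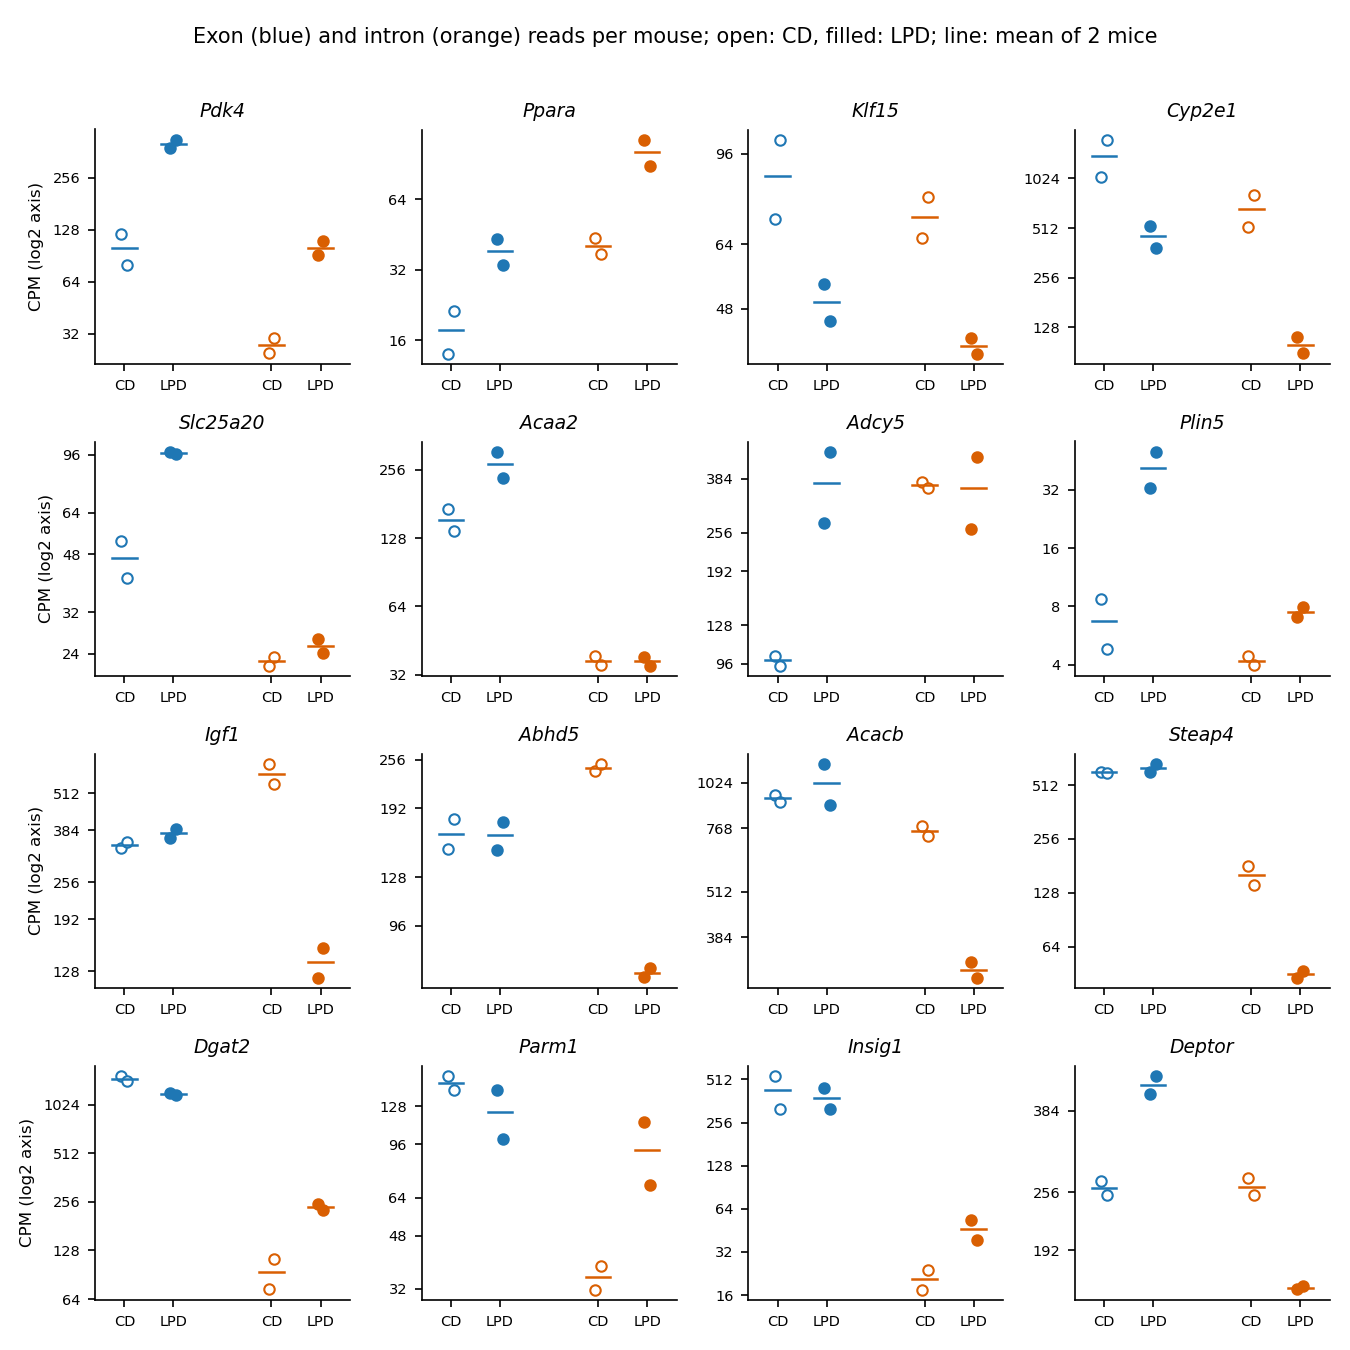
Normalized reads (CPM, log2 axis, scaled separately in each panel) of 16 genes in the 4 mice, exons in blue and introns in orange, CD as open and LPD as filled circles, with a line at the mean of 2 mice. Pdk4, Ppara, Klf15 and Cyp2e1 were called in the same direction in both colours, Slc25a20, Acaa2, Adcy5 and Plin5 in exons only, Igf1, Abhd5, Acacb, Steap4, Dgat2, Parm1 and Insig1 in introns only, and Deptor in opposite directions.

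Whether the diet effect differed between introns and exons was tested directly in a fit of all 8 columns, with the mouse as a term. The very small p-values of this test rest on spread within mice that is shared across genes, not on the spread between the 4 mice alone. The difference was called in 480 of the 10019 genes (4.79%), with a higher effect in introns in 177 and a lower one in 303, against 4.01% of all genes tested (1.47% higher, 2.54% lower). It was called in 12 of the 74 genes called in both, in 69 of the 171 exon-only genes, in 176 of the 328 intron-only genes, in all 3 opposite genes and in 220 genes called in neither column. By direction, it was called in 43 of 85 genes up in exons only and 26 of 86 down in exons only, and in 47 of 118 up in introns only and 129 of 210 down in introns only. The classes and this test use the same counts of the same mice. Genes called in 1 column only were thereby picked in part for unlike effects, so the shares by class describe the sorting and are no independent evidence.

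The number rested on the model. Without the mouse term, 67 genes were called, all of them among the 480, and under DESeq2 163 were called, all of them among the 480, with 49 of the 480 given no adjusted p by DESeq2. Called in all 3 fits were 63 genes, 51 with a lower and 12 with a higher effect in introns. Of the 63, 52 were intron-only, 8 exon-only, 2 opposite (Deptor and Ehhadh), and 1, Ywhag, was called in neither column. They included, chosen after their values were seen, Igf1, Adcy5, Steap4, Abhd5, Acacb, Pik3r1, Dgat2, Parm1, Adipor2, an adiponectin receptor, Tbc1d4, which gates glucose transporter traffic, and Mmp2, a matrix metalloprotease. Exon junction reads in place of exon reads gave 320 calls, 279 of them shared. Differences given above for Mest, Cyp2e1, Plin5, Slc25a20, Acaa2, Atp2a1, Retn and Insig1 were not called without the mouse term. Those given below for Fasn, Me1 and Hk2 were not either.

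**Figure D3:**
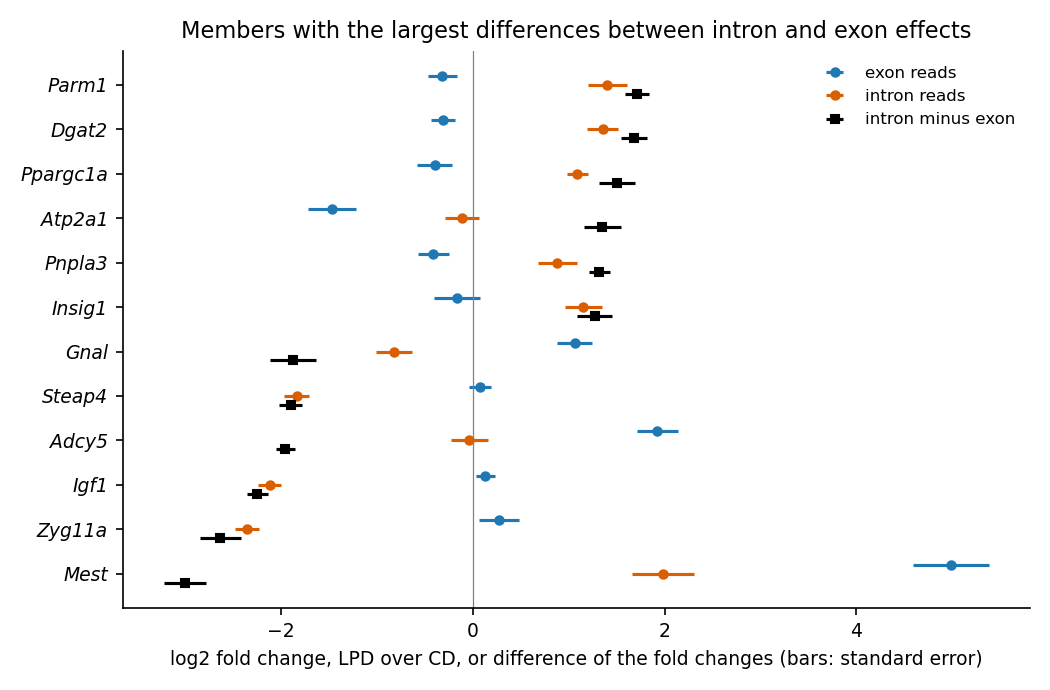
Log2 fold change of LPD over CD in exons (blue) and introns (orange) and the difference of the intron and the exon effect (black squares), with bars of 1 standard error, for the 6 genes with the largest difference in each direction. The largest differences lay in Mest, at −3.0, where both columns rose, and in Zyg11a and Igf1, at −2.63 and −2.25, where introns alone fell, while Parm1 and Dgat2 had the largest positive ones, at 1.71 and 1.68.

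Groups of genes written down for the tissue were then described by their counts, beside the 1.18% of genes tested that rose and the 1.32% that fell in exons. In introns these shares were 1.37% and 2.14%. Of all 10019 genes, 1596 had an unadjusted p below 0.05 in exons, 1584 in introns and 1555 for the difference. These are the background for the unadjusted counts of the lists. Of 32 fatty acid oxidation genes, 30 met the minimums, and 15 of these rose in exons (17 under DESeq2), with no fall by edgeR, by DESeq2 or at an unadjusted p below 0.05 (0 of 30, against 25 up). In introns 5 rose, among them Ppara, Acadm, Hadhb and Pdk4, and Ehhadh fell. The intron call of Hadhb was lost without LPD mouse 1 (0.51), without LPD mouse 2 (0.49) and under DESeq2, and its exon call without CD mouse 2 (0.73). The median change of the 30 was 0.56 in exons and 0.18 in introns, against 0.01 and 0.00 over all 10019 genes. The difference was called in 9 of the 30, among them Cpt1a, Cpt2, Slc25a20, Acadvl, Acadl, Acad11, Acaa2 and Ehhadh, each with the lower effect in introns. Cpt1a, the gate of mitochondrial import, rose by 0.70 ± 0.13 in exons and measured 0.29 ± 0.09 in introns, Acadl by 0.70 ± 0.13 against 0.07 ± 0.10, and Acadm, the medium-chain dehydrogenase, rose in both, at 0.67 ± 0.10 and 0.75 ± 0.11. The exon call of Acadm was lost without CD mouse 1 (0.74) or CD mouse 2 (0.61), that of Acadl without CD mouse 2 (0.55) or LPD mouse 1 (0.62), and that of Cpt1a without CD mouse 1 (0.64), CD mouse 2 (0.77) or LPD mouse 2 (0.49). Without CD mouse 1 the exon count was 7 of 30 and without CD mouse 2 it was 6, while the count of differences was 9 and 8, but without a mouse term only 2 differences were called. Of 7 genes that the study named for this diet on the same mice, Cpt1b and Ucp1 did not meet the minimums. Of the other 5 (Ppara, Cpt2, Hadha, Acaa2 and Acadvl), a choice that makes them no independent evidence, Ppara, Hadha and Acaa2 rose in exons and Ppara rose in introns, while DESeq2 called all 5 up in exons and edgeR called 0 of them without LPD mouse 1 and 4 without LPD mouse 2. The exon call of Hadha, 0.69 ± 0.14, was lost without CD mouse 1 (0.83), CD mouse 2 (0.56) or LPD mouse 1 (0.52). Cpt2 measured 0.43 ± 0.09 (SE; adjusted p = 0.0526) in exons and −0.19 ± 0.14 (SE; adjusted p = 0.609) in introns, and Acadvl 0.64 ± 0.15 (SE; adjusted p = 0.0587) and −0.09 ± 0.19 (SE; adjusted p = 0.88). By qRT-PCR, a separate measurement, the study reported significantly higher Acaa2, Acadvl, Cpt1b, Hadha and Ppara on LPD, and a tendency for Cpt2.

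Among fatty acid and triglyceride synthesis genes the signs of the medians were opposite. Of 25 genes, 2 fell in exons (Gpam and Fads1), 3 rose in introns (Dgat2, Pck1 and Agpat2) and 4 fell (Acacb, Srebf1, Gpam and Fads1). The median change was −0.25 in exons and 0.14 in introns. The exon call of Gpam was lost without any 1 of the 4 mice (−0.51 to −0.40), and both calls of Fads1 were lost without CD mouse 2 (−0.53 and −0.65), LPD mouse 1 (−0.66 and −0.95) or LPD mouse 2 (−0.70 and −0.99). In the list, 0 fell in exons without CD mouse 2 or LPD mouse 2, 6 fell and 2 rose without LPD mouse 1, and 4 fell and 2 rose under DESeq2. The intron calls of Srebf1 (without CD mouse 2, LPD mouse 1 or LPD mouse 2, −0.45 to −0.34) and Pck1 (without LPD mouse 2, 0.36) were also lost. The difference was called with a higher effect in introns in 8 genes (Acly, Fasn, Me1, Thrsp, Mlxipl, Agpat2, Dgat1 and Dgat2) and with a lower one in Acacb and Gpam. Fasn, the fatty acid synthase, measured 27778 and 27602 CPM on CD and 22237 and 11701 CPM on LPD in exons and 88.4 and 120.4 CPM on CD and 157 and 88.1 CPM on LPD in introns. Both LPD mice lay below both CD mice in exons, LPD mouse 2 by the most, and introns overlapped. The changes were −0.71 ± 0.32 (SE; adjusted p = 0.326) and 0.24 ± 0.23 (SE; adjusted p = 0.712), with a difference of 0.96 ± 0.15 (SE; adjusted p = 1.39e-05). Me1, the malic enzyme that supplies NADPH, measured −0.64 ± 0.20 and 0.33 ± 0.13, a difference of 0.98 ± 0.12 (SE; adjusted p = 6.25e-08). Only 37.5% of the exon reads and none of the intron reads of Agpat2 matched it alone. Me1, Fasn and the genes named in the lists for their calls were chosen after their values were seen. Without the mouse term, 1 gene had a called higher effect in introns, Dgat2.

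Lipolysis and lipid droplet genes were called in both columns. Of 16 genes, Plin5 alone rose in exons, while 6 rose in introns (Pnpla3, Plin2, Plin4, Cidec, Fabp4 and Pde3b) and 2 fell, Abhd5 and Pnpla2. Pnpla2, which encodes the lipase ATGL that Abhd5 activates, measured 72.8 and 76.0 CPM on CD and 46.1 and 52.1 CPM on LPD in introns and 1944 and 2303 CPM on CD and 2256 and 2756 CPM on LPD in exons. Its introns were lower on LPD without overlap and its exons overlapped, with changes of −0.60 ± 0.10 (SE; adjusted p = 0.014) and 0.24 ± 0.16 (SE; adjusted p = 0.559). Plin2, a droplet coat protein, rose by 0.81 ± 0.13 in introns and measured 0.38 ± 0.15 in exons, and Cidec, a droplet fusion protein, 0.87 ± 0.18 and 0.45 ± 0.20, with its intron call lost without LPD mouse 2 (0.66). The intron call of Pnpla2 was lost without LPD mouse 1 (−0.51). The difference was called in 6 of the 16, 3 higher and 3 lower in introns. Without LPD mouse 2, 1 of the 16 rose in introns and 1 in exons, without LPD mouse 1, 5 rose in introns and 5 in exons, and under DESeq2 3 rose and 2 fell in introns and 2 rose in exons. The intron call of Pnpla3 was lost without either LPD mouse (0.91 and 0.86) and under DESeq2. Among 12 thermogenic genes, Cidea, Cox8b and Gk rose in exons and Ppargc1a, Ppargc1b and Gk in introns, with medians of 0.51 and 0.42. The exon call of Cox8b was lost without LPD mouse 1 (0.97), without LPD mouse 2 (1.37) and under DESeq2, and the intron call of Ppargc1b without LPD mouse 1 (0.36). Ucp1, the uncoupling protein, did not meet the minimums.

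Of the circadian clock list, a similar number of genes fell in each column. Of 14 genes, 4 fell in exons, among them Per2, Per3 and Tef, and 4 in introns, among them Per3, Dbp and Tef, with medians of −0.39 and −0.30. Under 50% of the exon reads of Per3 (49.8%) and none of its intron reads matched it alone. Without LPD mouse 2 the counts were 0 in exons and 2 in introns, and without CD mouse 2 they were 0 and 3. Among 12 glucocorticoid targets, Errfi1 fell in exons and Fkbp5, Zbtb16, Klf9, Glul and Errfi1 fell in introns, while Pdk4 and Angptl4 rose in both. The intron calls of Klf9 (−0.30) and Zbtb16 (−0.40) were lost without LPD mouse 1, and that of Klf9 also without CD mouse 2 (−0.37). Fkbp5, a co-chaperone of the glucocorticoid receptor, measured 643 and 794 CPM on CD and 374 and 415 CPM on LPD in introns and 66.2 and 119 CPM on CD and 48.5 and 55.6 CPM on LPD in exons, with changes of −0.87 ± 0.11 (SE; adjusted p = 0.00232) and −0.83 ± 0.23 (SE; adjusted p = 0.102). The LPD mice were lower in both columns without overlap, and the exon change did not pass the test. Among 22 genes of the amino acid response, Sesn2 and Vldlr rose and Gpt2 fell in exons, and Sesn2 rose and Asns, Stc2, Eif4ebp1 and Gpt2 fell in introns. Sesn2, a leucine sensor that restrains mTORC1, measured 1.24 ± 0.20 and 1.13 ± 0.20, with both calls lost without LPD mouse 2 (0.97 and 0.92) and the exon call also without CD mouse 2 (1.02). The call of Vldlr was lost without CD mouse 1 (0.55), CD mouse 2 (0.46) or LPD mouse 2 (0.38), that of Stc2 without CD mouse 2 (−0.78) or LPD mouse 1 (−0.70), and that of Eif4ebp1 without CD mouse 2 (−0.41), LPD mouse 1 (−0.46) or LPD mouse 2 (−0.43).

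Of the skeletal muscle markers, more were called down in exons than in introns. Of the 44, 15 met the minimums, since the introns of the others held few reads, and 11 of the 15 fell in exons and 5 in introns, with medians of −1.24 and −0.50. The difference was called in Ttn, Neb, Ryr1, Atp2a1 and Tpm2, each with the smaller fall in introns. DESeq2 called 3 differences in the list, and the fit without the mouse term 0. Without LPD mouse 2, 1 of the 15 fell in exons and 1 in introns. The summed muscle level given above moved with the diet in both columns, and its part in the other results was not tested.

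Groups with general tasks had medians near 0 in both columns. Of the 34 ribosomal protein genes, 0 were called by edgeR or DESeq2 in exons, introns or the difference, and 0 had an unadjusted p below 0.05, with medians of 0.01 in exons and −0.06 in introns. Of the 38 splicing factor genes, 0 were called by either tool, 1 had an unadjusted p below 0.05 in exons, 1 in introns and 5 in the difference, with medians of −0.01 and 0.05. Of 14 endothelial genes, 0 were called by either tool, and 3 had an unadjusted p below 0.05 in exons and 2 in introns. Of 14 macrophage genes, Cd163 and Clec10a fell in exons and Cd163 in introns, at −0.47 ± 0.09 and −0.44 ± 0.08 in exons and −0.49 ± 0.11 in introns, calls that DESeq2 did not make. Of 24 lymphocyte genes, Ms4a1 and Bank1 rose in exons and Bank1 in introns, and 29.6% of the exon reads of Ms4a1 matched it alone. The call of Ms4a1 was lost without any 1 of the 4 mice (0.42 to 0.52). The exon call of Bank1 was lost without CD mouse 1 (0.60), CD mouse 2 (0.45) or LPD mouse 2 (0.51), and its intron call without LPD mouse 1 (0.37) or LPD mouse 2 (0.41). Of 27 collagen and matrix genes, Sparc rose and Dcn fell in exons, Col5a3, Postn and P4ha1 rose in introns and Mmp2 fell there. The exon calls of Sparc (1.09, 0.80 and 0.63) and Dcn (−0.75, −0.49 and −0.60) were lost without CD mouse 1, CD mouse 2 or LPD mouse 2, the intron call of Col5a3 without LPD mouse 2 (0.71), and that of Postn without CD mouse 2 (0.61), LPD mouse 1 (0.69) or LPD mouse 2 (0.79). Of 17 immediate early genes, which rise with handling or stress, Btg2 and Cyr61 rose in exons. Both calls were lost without LPD mouse 2 (0.53 and 0.83), that of Btg2 also without CD mouse 2 (0.52), and that of Cyr61 also without CD mouse 1 (0.75). In introns 0 were called by edgeR or DESeq2, with 3 at an unadjusted p below 0.05. Of 10 progenitor genes, 0 were called in exons or introns by either tool, with 3 and 2 at an unadjusted p below 0.05, and the difference was called in F3 alone.

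Of 26 nuclear genes of the respiratory chain, Cox8b rose in exons and Atp5o fell in introns, with medians of 0.09 and −0.13, and 1.58% of the intron reads of Atp5o matched it alone. Cox8b was not called without LPD mouse 1 (0.97), without LPD mouse 2 (1.37) or under DESeq2, which left 0 exon calls in the list in each case, and Atp5o was not called without LPD mouse 1 (−0.37) or LPD mouse 2 (−0.47). Of 24 genes of the citrate cycle, Idh3a rose in both and Sucla2 in exons, and Pdhx fell in introns. The exon call of Idh3a was lost without CD mouse 1 (0.60), CD mouse 2 (0.49) or LPD mouse 2 (0.55), its intron call without LPD mouse 2 (0.67), the call of Sucla2 without CD mouse 2 (0.45), LPD mouse 1 (0.47) or LPD mouse 2 (0.69), and that of Pdhx without CD mouse 1 (−0.40), LPD mouse 1 (−0.41) or LPD mouse 2 (−0.46). The exon count of the list was 0 without CD mouse 2, 1 up and 2 down without LPD mouse 1, and 5 up and 1 down under DESeq2. Of 21 glycolysis genes, 0 were called in exons by edgeR and 3 by DESeq2, with 10 at an unadjusted p below 0.05, while Pfkfb3 rose and Pfkfb1 fell in introns, with both calls lost without LPD mouse 2 (0.36 and −0.51) and that of Pfkfb1 also without CD mouse 2 (−0.33) or LPD mouse 1 (−0.46), and the difference was called in Hk2, Aldoa, Pfkfb4 and Pfkl. Hk2, the insulin-dependent hexokinase, measured −0.47 ± 0.13 in exons and 0.47 ± 0.13 in introns, a difference of 0.94 ± 0.13 (SE; adjusted p = 1.89e-06).

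**Figure D4:**
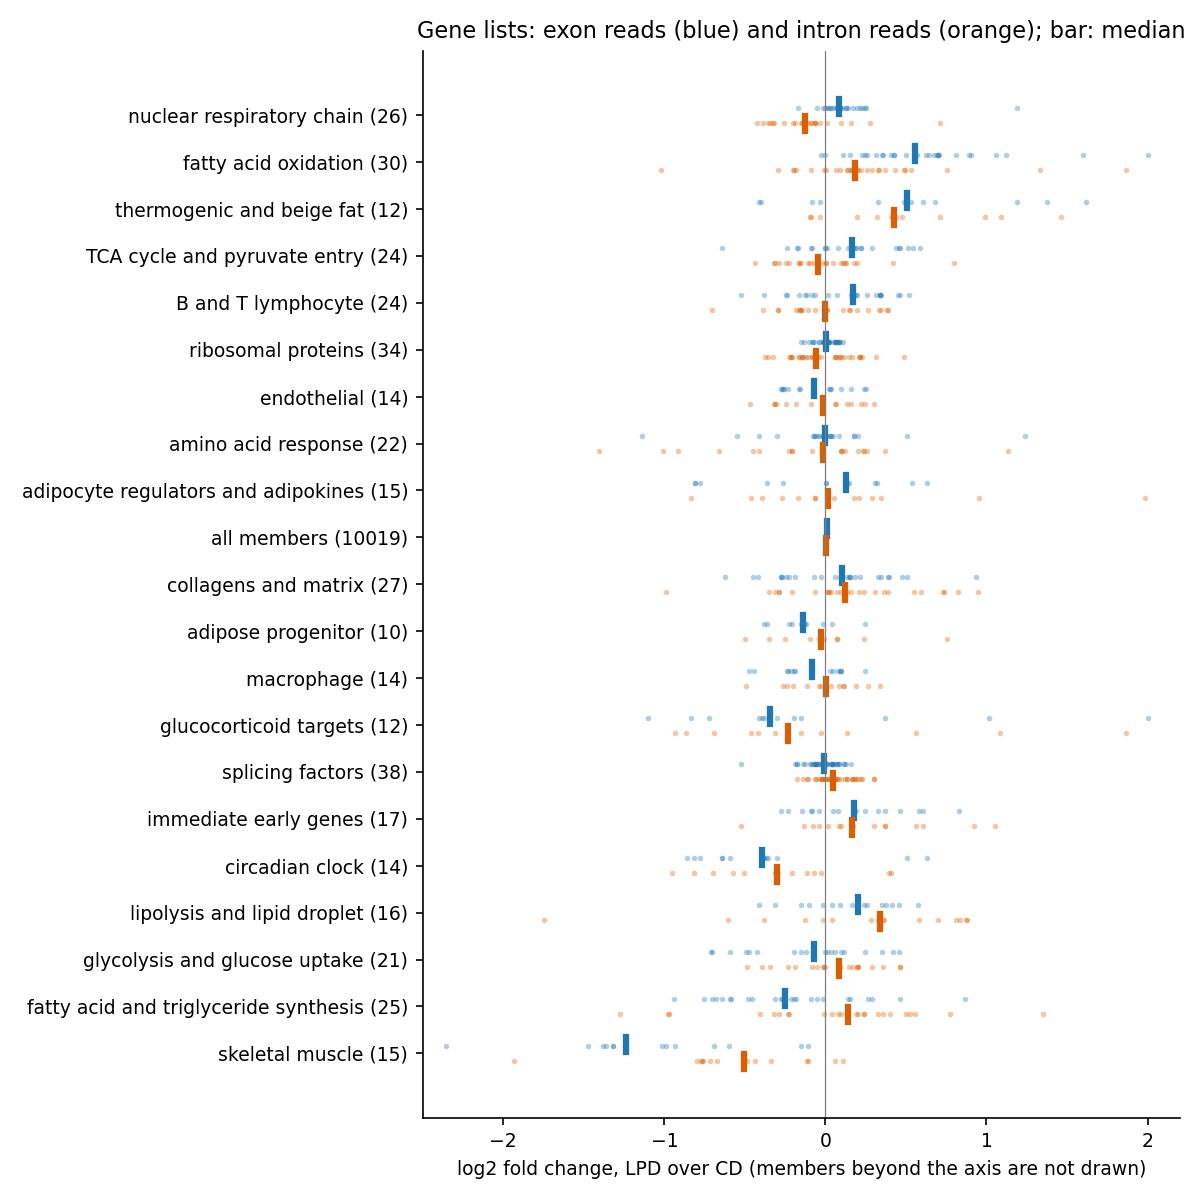
Log2 fold change of LPD over CD for the genes of each list that met the minimums (number in parentheses), exons in blue above and introns in orange below, as 1 faint point per gene and a bar at the median, with lists ordered by the median of intron minus exon and with medians only for all 10019 genes. Fatty acid oxidation sits at 0.56 in exons and 0.18 in introns, synthesis at −0.25 and 0.14, and skeletal muscle at −1.24 and −0.50, while ribosomal proteins and splicing factors sit near 0 in both.

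The classes also differed in intron length and in read numbers, which come from the tested counts, both given as a description. Length did not enter the calls directly, but its part in the number of intron reads was not tested. The median intron length was 26.6 kb over all 10019 genes, 58.7 kb in genes down in introns only and 46.0 kb in genes up in introns only. It was 30.4 and 33.4 kb in genes up and down in exons only, and 34.3 and 31.4 kb in genes up and down in both. Introns held 38.9% of the reads of the median gene of the 10019, 47.2% in genes down in introns only, and 22.9% and 23.6% in genes up and down in exons only. The median gene had 187 intron reads over the 10019, 568 in genes down in introns only and 140 in genes down in exons only, so the number of reads, and with it the power of each test, moved with the class, and its part in the class was not tested. When the exon reads of each gene were thinned to its intron reads, 377 genes were called in exons, against 248 in the main fit. Of the classes, 114 genes were called in both (74 in the main fit), 256 in exons only (171) and 284 in introns only (328). Of the 248 exon calls, 203 were shared. Of the genes just inside the minimum, 95 had a lowest value of exactly 20 reads, with a median change of −0.06 in exons and −0.08 in introns, and 103 genes just outside, at 19 reads, had 0.02 and −0.05.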

How the data were processed

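RNA of inguinal white adipose tissue was depleted of ribosomal RNA, made into directional libraries and sequenced in pairs by the authors, who aligned them with CLC Genomics Workbench against the mm10 assembly. The deposited tables list 1 gene per line, with raw counts of total and unique reads on exons, on introns, on exon junctions and on the whole gene, and with TPM and RPKM values that the authors normalized themselves. Only the read counts were used here. The annotation release and the strand setting of the counting are not given in the sources used here, so reads of genes that overlap cannot be assigned with certainty. Coordinates are those of the deposited tables (mm10).

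Exon and intron counts of the 4 libraries were each filtered with filterByExpr, scaled by TMM and tested with edgeR's quasi-likelihood test (edgeR 4.0.16, limma 3.58.1, R 4.3.3) across every gene that passed, with Benjamini-Hochberg adjustment over all of them. The intron minus exon difference was fitted to all 8 columns with the mouse as a term. In each of these fits the spread of a gene was drawn toward a trend over all genes tested. With 1 mouse left out, its diet holds 1 library and the spread comes from the other diet. CPM values are counts over the TMM-scaled exon or intron total. The programs were tested on simulated data. Alternatives were DESeq2 (1.42.0), other scalings and filters, unique or junction reads, thinned exon reads, a replicate block, all 4 groups, no mouse term, and leaving out each mouse. Promoter windows came from RefSeq (GRCm38.p6). Figures and counts used Python 3.11.15 with pandas 2.3.3, numpy 2.4.6 and matplotlib 3.10.9.

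The genes examined, the gene lists and the rules were chosen with earlier results of these data known. Genes were named by rank of effect among those called, 8 per direction for both columns, 6 per direction for exons only, introns only and the difference, and up to 4 per list, with the genes the study named and Mest. Other genes given were chosen after their values were seen. Some genes that the rule named are not reported here.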

Additional observations from a re-analysis of the deposited data

How the results depend on the processing

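The main counts were 248 genes in exons, 405 in introns, 74 in both, 171 in exons only, 328 in introns only and 480 for the difference. Leaving out 1 mouse gave 66 to 348 in exons, 271 to 722 in introns, 22 to 106 in both, 42 to 236 in exons only, 200 to 615 in introns only and 355 to 471 for the difference. With no filter on low counts, 877 were called in exons, 803 in introns, 298 in both and 549 in exons only. With both generations of mice in 1 fit the 6 counts were 122, 195, 21, 100, 173 and 196. Without any gene whose span overlaps another, which left 4508 genes, they were 119, 179, 32, 87, 147 and 192. Junction reads gave 126 in exons, 42 in both, 82 in exons only and 320 for the difference. Exon reads thinned to the intron depth gave 377 in exons, 114 in both, 256 in exons only and 284 in introns only. DESeq2 called 163 differences, and a fit without the mouse term 67. A replicate block pairing mice of equal number gave 1006 in exons, 639 in introns, 251 in both and 729 in exons only. The labels give both diets numbers 1 and 2, but the deviations of equal numbers correlated at 0.0564 in exons and 0.0227 in introns over genes, and nothing says that a number marks a shared litter or day. The intron share of all reads differed by −1.01 percentage points without the 1% of genes with the most reads. Unique reads turned the sign of Atp5o, from −0.42 to 0.58 in introns and from −0.43 to 0.56 for the difference. Of 3548 further values for single genes, 2974 kept their call, 572 lost it and 2 turned sign, with the cause not tested. Of 276 values without a call, 78 changed sign and 88 were called under at least 1 alternative. Genes near the minimum of 20 reads have the least precision.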
